A study of Mus musculus with 16 samples.

Results

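Trp53 and 9 of its target genes (Mdm2, Cdkn1a, Ccng1, Phlda3, Trp53inp1, Sesn2, Zmat3, Aen and Plk2) were followed in EpCAM+ cells sorted from mouse distal colon. They are 10 of the 22396 gene symbols in the deposited tables, matched by symbol in both tables, with the TPM (a transcript abundance scaled to transcript length and to the total of the library) of the listed transcripts summed per gene. The set was chosen by the level of the 1 listed Trp53 transcript in the DSS mice, which differed between genotypes. The values of these genes in that contrast are therefore given as a description, without a test, and their test results come from the mice given water.

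The 16 mice were about 8 weeks old and fell into 4 groups. Control mice were Tnfr2-f/f, and the mice labelled knockout were Vil1::Cre;Tnfr2-f/f, in which Cre driven by the villin promoter acts in intestinal epithelium on a floxed exon of Tnfr2 (Tnfrsf1b, the gene for TNF receptor 2). Both genotypes thus carry the floxed alleles. After dextran sulfate sodium (DSS), given in drinking water to injure the colonic epithelium, there were 3 control mice and 4 labelled knockout mice. Given water, there were 4 control mice and 5 labelled knockout mice. The labels give 3% DSS or water for 6 days and dissection on day 12 for all mice. The study's methods instead give 3.5% DSS, describe the water mice as uninjured mice at the start of the time course, and state that injured regions were taken after DSS. Which applies to these mice cannot be settled from the files. All DSS mice were female and came from 2 cages. The water mice came from 2 other cages, 1 of males and 1 of females, so treatment and cage cannot be told apart.

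Trp53 encodes p53, a transcription factor that is held low by continuous degradation and is stabilised after DNA damage and other stress. Much of its control acts on the protein, so the level of its transcript and the activity of the protein can move apart. p53 binds pairs of a decamer motif near its target genes. Its targets include its own inhibitor Mdm2, an E3 ubiquitin ligase, and Cdkn1a, which encodes the cell cycle inhibitor p21. In intestinal epithelium p53 is known for its part in crypt cell arrest and death after irradiation.

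Several properties of the series bear on every value below. Tnfrsf1b was not lower in the labelled knockout mice after DSS, at 18.4 ± 6.02 TPM (SD, n = 4) against 16.5 ± 4.95 TPM (SD, n = 3) in controls. In water it was 11.8 ± 2.30 TPM (SD, n = 5) against 13.9 ± 2.06 TPM (SD, n = 4), with overlapping mice and an exact two-sided permutation p of 0.198. The deletion of 1 exon need not lower these values, so the label was neither shown nor contradicted, and the mice are called labelled knockout. Epithelial markers were present in all mice, with summed levels of their 10 genes between 5469 and 8582 TPM. The 10 B and plasma cell markers summed to between 673 and 14940 TPM in the water mice and to between 206 and 692 TPM in the DSS mice, and 8 T cell markers were also lower after DSS (10.2 to 40.4 TPM against 0.1001 to 2.92 TPM). The values are bulk levels, in which fewer cells of a type and less RNA per cell cannot be told apart. TPM keep no read depth. The labels give about 10000000 reads per sample, and the listed transcripts of a mouse summed to between 487469 and 861109 TPM.

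The sequence of the listed Trp53 transcript is shown first because it limits what its level can say. The tables list 1 of the 6 Trp53 transcripts in GENCODE M21, Trp53-203, which has 1771 bases in 11 exons (gene at chr11:69580359-69591873, plus strand, GRCm38). The unlisted Trp53-201 has 1772 bases and holds the whole of Trp53-203 as 1 unbroken run, so the pair differ by 1 final base, printed in capitals.
Trp53-203, positions 1747 to 1771: ttacaataaaattttgttatcactt
Trp53-201, positions 1747 to 1772: ttacaataaaattttgttatcacttA
Of the 1741 windows of 31 bases in Trp53-203, 0 are absent from the unlisted transcripts of the gene. A further 365 of them (20.97%) also occur in the processed pseudogene Trp53-ps. A quantifier can therefore allot reads of this gene to Trp53-201, which is not in the tables, without any change in Trp53 RNA. How far this happened in each mouse was not tested.

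Listed Trp53 RNA was at similar levels in 3 of the 4 groups and near 0 in the DSS mice labelled knockout. The water controls stood at 18.9, 15.8, 13.2 and 19.4 TPM, and the water mice labelled knockout at 21.6, 23.9, 20.003, 14.0 and 15.6 TPM. The DSS controls stood at 18.97, 21.7 and 27.1 TPM. The DSS mice labelled knockout stood at 1.62, 1.45e-06, 0.0202 and 4.03 TPM. Ordered by mean, the DSS mice labelled knockout came lowest, followed by the water controls (16.8 ± 2.90 TPM, SD, n = 4), the water mice labelled knockout (19.02 ± 4.12 TPM, SD, n = 5) and the DSS controls (22.6 ± 4.14 TPM, SD, n = 3), and neighbours among these last 3 groups overlapped. The highest DSS mouse labelled knockout, at 4.03 TPM, and the lowest DSS control, at 18.97 TPM, lay on either side of the gap that chose the set.

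**Figure D1:**
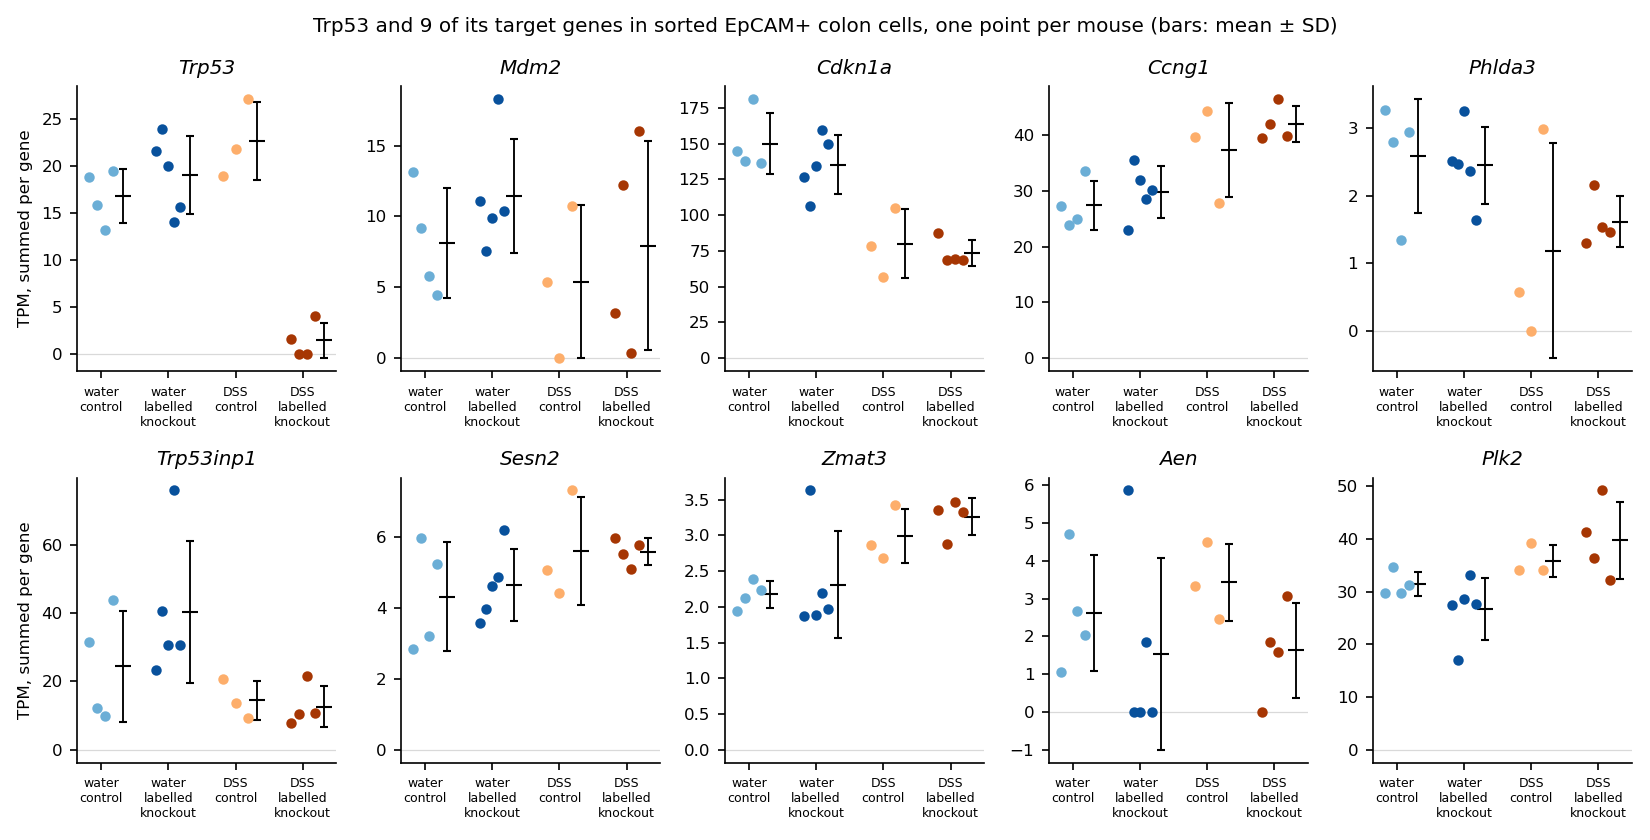
Level of Trp53 and of each of 9 target genes (TPM, linear axis) in every mouse of the 4 groups, with the group mean and SD as bars. Trp53, whose values chose the set, lies at or below 4.03 TPM in the 4 DSS mice labelled knockout. No target gene separates the same 2 groups of DSS mice, as 1.55% (lower) and 2.13% (higher) of all genes do. Cdkn1a is lower in all 7 DSS mice than in all 9 water mice, as 4.16% of all genes are.

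Of the 10 genes, Trp53 alone had DSS mice labelled knockout that were all below the DSS controls, and none had mice that were all above. Over all 10899 genes tested, 1.55% were lower and 2.13% were higher without overlap in this contrast, and 0.00918% (1 gene, no member) had an adjusted p under 0.05 in limma. Nothing is read from the members' count, since the contrast chose them. Cdkn1a, the p21 gene, stood at 78.6, 56.6 and 105 TPM in the DSS controls and at 87.4, 68.6, 69.3 and 68.6 TPM in the DSS mice labelled knockout. The labelled knockout mice lay within the range of the controls.

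The other targets overlapped in the same way after DSS. Mdm2 stood at 5.40, 1.08e-09 and 10.8 TPM in the controls and at 3.17, 12.2, 0.375 and 16.1 TPM in the labelled knockout mice. Low and high mice occurred in both groups. Ccng1, which encodes cyclin G1, a regulator of Mdm2, stood at 39.7, 44.3 and 27.9 TPM in the controls and at 39.5, 42.0, 46.5 and 39.8 TPM in the labelled knockout mice. Plk2, a polo-like kinase gene, stood at 34.02, 39.3 and 34.1 TPM against 41.4, 36.3, 49.2 and 32.2 TPM. In both genes most labelled knockout mice lay within or above the range of the controls.

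Among the less abundant targets, Sesn2, which encodes a sestrin that restrains mTORC1, stood at 5.07, 4.43 and 7.32 TPM in the DSS controls and at 5.98, 5.52, 5.09 and 5.78 TPM in the DSS mice labelled knockout. Zmat3, which encodes an RNA-binding zinc finger protein, stood at 2.87, 2.69 and 3.42 TPM against 3.35, 2.88, 3.47 and 3.33 TPM. In both genes the labelled knockout mice lay near the controls. Phlda3, an inhibitor of Akt, was listed at 0.573, 0 and 2.99 TPM in the controls and at 1.31, 2.16, 1.53 and 1.46 TPM in the labelled knockout mice. Trp53inp1, a p53-induced regulator of autophagy and cell death, stood at 20.6, 13.6 and 9.27 TPM against 7.84, 10.5, 21.7 and 10.7 TPM. Aen, an apoptosis-enhancing nuclease gene, stood at 3.34, 4.48 and 2.47 TPM against 0.00267, 1.84, 1.58 and 3.07 TPM. Of these, Aen had 3 of 4 labelled knockout mice below every control, and the fourth, at 3.07 TPM, lay among them.

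Among the 4 DSS mice labelled knockout, the targets were also not ordered as listed Trp53 was. The mouse with the least listed Trp53 (1.45e-06 TPM) had 12.2 TPM of Mdm2 and 68.6 TPM of Cdkn1a, and the mouse with the most (4.03 TPM) had 16.1 and 68.6 TPM. The mouse at 0.0202 TPM of Trp53 had the lowest Mdm2 (0.375 TPM) and the highest Ccng1 (46.5 TPM), Plk2 (49.2 TPM) and Trp53inp1 (21.7 TPM) of the 4. Over all 7 DSS mice Trp53 falls into 2 separate clusters that are the genotypes, so a relation between a target and Trp53 cannot be told apart from genotype there and no pooled correlation is given.

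The same genotype contrast in water, which did not choose the genes, asks whether any member differs where listed Trp53 is present in both genotypes. It found no member past the threshold. None of the 10 genes had mice of the 2 groups that did not overlap, while 0.67% of the 11046 genes tested were higher and 0.878% lower without overlap. None of the 10 was called by limma (adjusted p between 0.865 and 0.981), against 0.00905% of all genes, and none had an unadjusted p under 0.05, against 5.28% of all genes (2.7% higher and 2.58% lower). Trp53 differed by 0.16 on the log2 scale (SE 0.18, labelled knockout minus control, adjusted p = 0.890 in limma). The largest differences were in genes with wide spread between mice. Trp53inp1 was 0.82 higher (SE 0.47, limma adjusted p = 0.865), with controls at 31.5, 12.3, 9.99 and 43.8 TPM and labelled knockout mice at 23.4, 40.6, 30.6, 76.0 and 30.8 TPM. Aen was 0.90 lower (log2 difference -0.90, SE 0.62, limma adjusted p = 0.865) and was listed at 0 TPM in 3 of the 5 labelled knockout mice, with the other 2 at 5.86 and 1.84 TPM and the controls at 1.05, 4.71, 2.67 and 2.03 TPM.

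The remaining members differed less between genotypes in water. Mdm2 stood at 13.2, 9.21, 5.79 and 4.46 TPM in controls and at 11.1, 7.56, 9.88, 18.3 and 10.4 TPM in labelled knockout mice (log2 difference 0.49, SE 0.31, limma adjusted p = 0.865). Plk2 stood at 29.8, 34.6, 29.8 and 31.2 TPM in controls and at 27.4, 17.1, 28.5, 33.2 and 27.6 TPM in labelled knockout mice (log2 difference -0.25, SE 0.17, limma adjusted p = 0.865). In both genes the groups overlapped, but without labelled knockout replicate 4 all 4 remaining labelled knockout mice lay below the controls for Plk2. The log2 differences of Cdkn1a, Ccng1, Phlda3, Sesn2 and Zmat3 lay between -0.15 and 0.12, and the exact two-sided permutation p for the difference of mean TPM lay between 0.167 and 0.960 over the 10 genes, where 0.00794 is the smallest that 4 against 5 mice allow.

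Levels after DSS were set beside those in water without a test, because the tables were normalised separately. Cdkn1a was the 1 member that was lower in every DSS mouse than in every water mouse, and no member was higher in every DSS mouse. Of all genes, 4.16% were lower and 18.9% higher in this way in the deposited values, and 7.05% lower and 4.39% higher once all 16 mice were rescaled together. Water controls stood at 145, 138, 181 and 136 TPM of Cdkn1a and water mice labelled knockout at 126.5, 106, 134, 159.7 and 149.7 TPM. Leaving out 1 mouse kept Cdkn1a in this count each time and added Zmat3 without water labelled knockout replicate 2 and Ccng1 without DSS control replicate 3. The highest DSS mouse, at 105 TPM, lay just under the lowest water mouse, at 106 TPM. Mean log2(TPM + 1) of Cdkn1a was 0.93 lower after DSS in controls (difference -0.93) and 0.87 lower in labelled knockout mice (difference -0.87). The median gene was higher after DSS by 0.32 in controls and by 0.31 in labelled knockout mice, so that Cdkn1a lay 1.25 below the median gene in controls (-1.25) and 1.18 below it in labelled knockout mice (-1.18).

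The other targets were set beside water in each genotype, with listed Trp53 high in DSS controls and near 0 in DSS mice labelled knockout. The 2 genotypes share no mice, but they share the 2 tables and their scaling. Mdm2 had a DSS minus water difference of -1.02 in controls and -1.0 in labelled knockout mice on the log2 scale, and both values rested on 1 mouse. Without DSS control replicate 2 (1.08e-09 TPM) the difference in controls was 0.021, and without DSS labelled knockout replicate 3 (0.375 TPM) that in labelled knockout mice was -0.29. Ccng1 had 0.42 and 0.49, Zmat3 0.33 and 0.39, Aen 0.37 and 0.37, and Sesn2 0.33 and 0.24, all near the shift of the median gene. Trp53 itself had 0.41 and -3.36. Mdm2, Cdkn1a, Phlda3 and Trp53inp1 lay below the median gene in both genotypes, also with any 1 mouse left out. Relative to the median gene, Cdkn1a then spanned -1.40 to -1.06 in controls and -1.25 to -1.10 in labelled knockout mice, and Mdm2 spanned -2.01 to -0.33 and -1.82 to -0.61.

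Phlda3 had a difference of -0.92 in controls (-1.48 without DSS control replicate 3 and -0.48 without DSS control replicate 2) and -0.39 in labelled knockout mice. Trp53inp1 had -0.54 (-0.86 to -0.18 with 1 mouse left out) and -1.57 (-1.84 to -1.31). Zmat3 was higher in every DSS control than in every water control, and Ccng1 was higher in every DSS mouse labelled knockout than in every water mouse labelled knockout (30.9% and 31.5% of all genes were higher in this way). Trp53, Cdkn1a and Trp53inp1 were lower without overlap in the labelled knockout mice, where 10.1% of all genes were, and Cdkn1a in the controls, where 8.25% were. The direction of 2 small differences turned with the scaling. After rescaling over 16 mice, Plk2 in controls went from 0.19 to -0.17 and Sesn2 in labelled knockout mice from 0.24 to -0.07. B and plasma cell, T cell and fibroblast markers were lower after DSS too (fibroblast markers summed to between 294 and 890 TPM in water and between 125.7 and 560 TPM after DSS). Of 10 myeloid markers, 6 were lower without overlap in the DSS mice and 2, the neutrophil genes S100a8 and S100a9, were higher. Smooth muscle markers summed to between 29.5 and 66.8 TPM in water and between 11.4 and 43.1 TPM after DSS. The part of these cells in the differences was not tested.

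**Figure D2:**
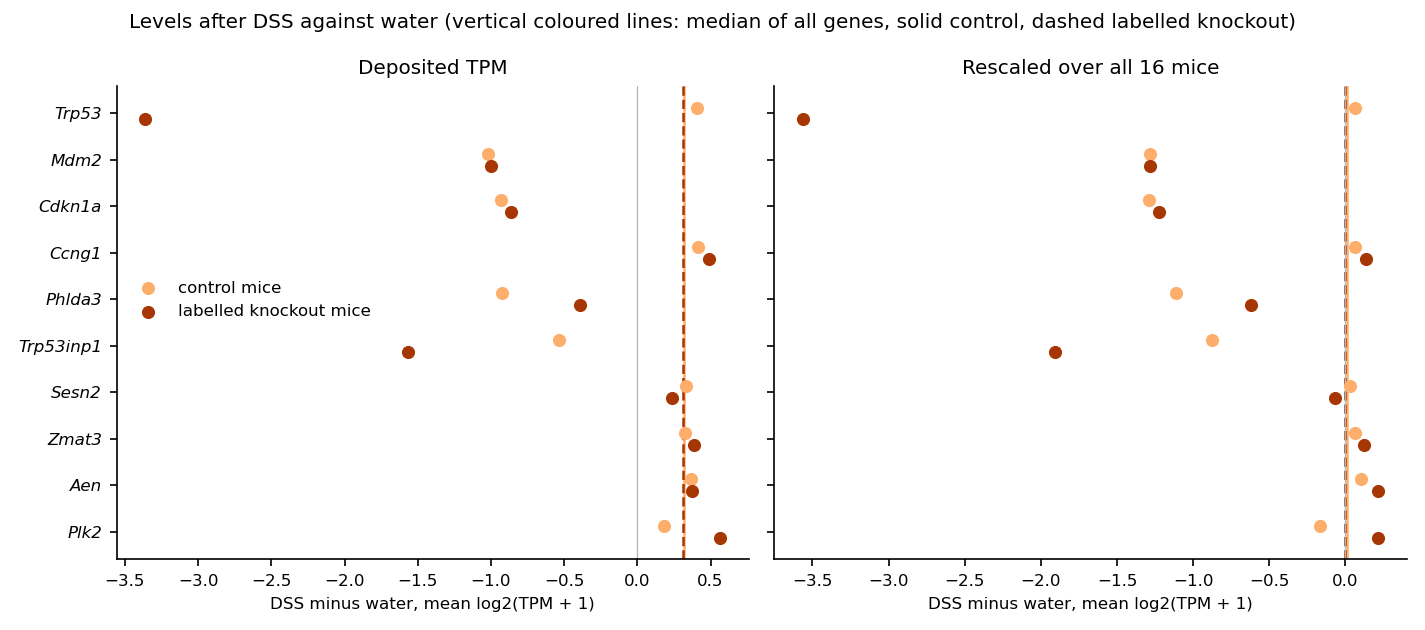
DSS minus water difference of mean log2(TPM + 1) for each gene in control and in labelled knockout mice, in deposited TPM (left) and after rescaling over 16 mice (right), with the median of all genes as vertical lines. Cdkn1a lies over 1 unit below the median gene in both genotypes on both scales, Mdm2 does so through 1 mouse of each genotype (without it -0.33 in controls on the deposited scale), and Trp53 lies far below it in labelled knockout mice only.

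The promoter of Cdkn1a is shown because its p53 element can be seen in the reference sequence and its transcripts differ in where they start. In RefSeq promoters of GRCm38.p6 (250 bases before to 50 after a start), 10 windows matched 8 of the members, and Trp53inp1 and Zmat3 had none. The p53 consensus decamer was searched by its standard form, which reads the same on both strands. A pair of adjoining decamers with at most 2 mismatches in all was found in 1 of the 10 windows, that of the upstream Cdkn1a start, against 52 of 32851 promoters (0.158%). The element has 1 mismatch and ends 32 bases before the upstream start and 2822 bases before the main start. It is in capitals below.
Cdkn1a, chr17:29090908-29090967, plus strand: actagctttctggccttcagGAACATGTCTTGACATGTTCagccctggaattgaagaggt

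Single exact decamers were present in windows of 5 of the 8 members with a promoter (62.5%), against 9.55% of the 27025 gene symbols with one. They are in capitals in the stretches that follow, with those of the upstream Cdkn1a window overlapping the stretch above. A match is a description of these letters and not a bound site.
Trp53, chr11:69580274-69580303, plus strand: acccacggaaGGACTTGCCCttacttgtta
Mdm2, chr10:117710925-117710954, minus strand: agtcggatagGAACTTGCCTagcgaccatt
Ccng1, chr11:40755452-40755481, minus strand: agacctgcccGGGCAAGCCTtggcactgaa
Aen, chr7:78895927-78895956, plus strand: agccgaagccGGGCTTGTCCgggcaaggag
Genes with and without such a match occurred both among those below the median gene after DSS (Mdm2 with, Phlda3 without) and among those near it (Ccng1 with, Plk2 without).

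Of the 3 listed Cdkn1a transcripts, the main one, Cdkn1a-201, made up 78.1% ± 8.65 (SD, n = 4) of the gene's TPM in water controls and 82.9% ± 3.80 (SD, n = 3) in DSS controls. It went from 117 ± 20.4 TPM (SD, n = 4) to 66.2 ± 19.2 TPM (SD, n = 3). The transcript from the upstream start beside the element, Cdkn1a-202, was at 20.8 ± 17.04 TPM (SD, n = 4) in water controls and 24.4 ± 12.8 TPM (SD, n = 5) in water mice labelled knockout, and at 3.60 ± 3.38 TPM (SD, n = 3) and 7.19 ± 6.40 TPM (SD, n = 4) in the matching DSS groups. Single mice of Cdkn1a-202 spanned 0.0109 to 41.7 TPM in water and 0 to 15.3 TPM after DSS, so the treatments overlapped. Only 3.25% of the windows of this transcript are its own, so its split from the main transcript is less certain than the gene's sum.

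Whether the targets follow Trp53 from mouse to mouse was tested in the 9 water mice, where Trp53 ranged from 13.2 to 23.9 TPM. Of 9 targets, 4 had a positive and 5 a negative correlation with Trp53. Cdkn1a went the opposite way to Trp53. In the order of rising Trp53, Cdkn1a stood at 181, 159.7, 149.7, 138, 145, 136, 134, 126.5 and 106 TPM. Pearson's r on log2(TPM + 1) was -0.92 (exact permutation p = 0.000157) and Spearman's rho was -0.98 (exact permutation p = 4.96e-05), and without the 2 mice farthest from the median Trp53 r was -0.84 (exact permutation p = 0.0107, n = 7). In the fit across all genes, however, its slope of -0.71 (SE 0.15) had a limma adjusted p of 0.273. No gene was called in that fit, with 11.5% of all genes at an unadjusted p under 0.05, and 0.435% of genes had a smaller p than Cdkn1a. With cage as a covariate the slope was -0.75 and with genotype as a covariate -0.69. Each cage held 4 or 5 mice, and no correlation is given for so few, but within each cage Cdkn1a fell at every step of rising Trp53 (181, 145, 126.5 and 106 TPM in the cage of males and 159.7, 149.7, 138, 136 and 134 TPM in the cage of females).

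Markers of other cell types also varied along this order of mice, in both directions. Of the 8 fibroblast markers, 7 had a negative slope on Trp53 with an unadjusted p under 0.05 in limma, where 5.97% of all genes did, and none was called after adjustment. Their summed level was 890, 840, 417, 889, 593, 674, 564, 527 and 294 TPM in the order of rising Trp53. Of 10 myeloid markers, 4 also had such a slope. B and plasma cell markers went the other way, with a positive slope in 9 of the 9 tested, 0 of them at an unadjusted p under 0.05 in limma. Their summed level was 673 TPM in the mouse with the least Trp53 and 14940 TPM in that with the most, without a steady order between. The part of these cells in the relation of Cdkn1a and Trp53 was not tested.

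**Figure D3:**
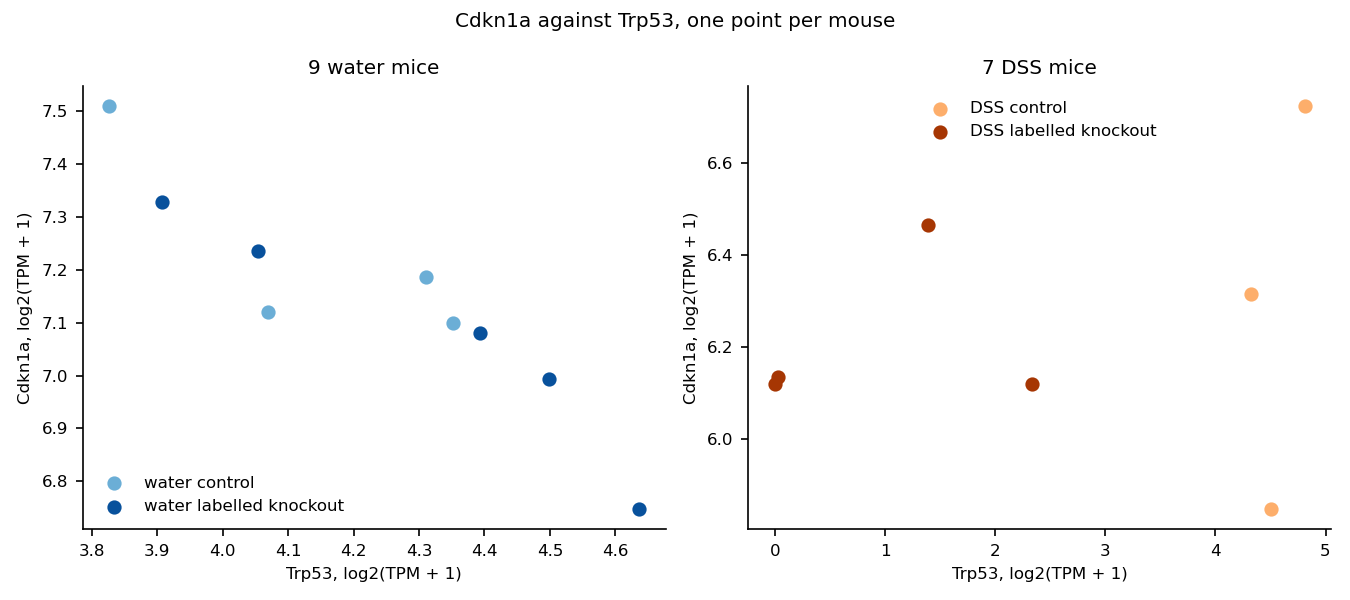
Cdkn1a against Trp53, both as log2(TPM + 1), with 1 point per mouse, for the 9 water mice (left) and the 7 DSS mice (right), on axes of different ranges. In water Cdkn1a is lower where Trp53 is higher (r = -0.92), and after DSS the 2 genotypes form separate clusters along Trp53 with overlapping Cdkn1a.

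Of the other targets, Plk2 had r = -0.66 in water (exact permutation p = 0.0302) and rho = -0.63 (exact permutation p = 0.0760), with a limma adjusted p of 0.423. The relation rested on labelled knockout replicate 2, which had the lowest Plk2 (17.1 TPM) and the highest Trp53 (23.9 TPM). Without it r was -0.45 (exact permutation p = 0.263, n = 8). Without the 2 mice farthest from the median Trp53 r was -0.71 (exact permutation p = 0.05, n = 7). The remaining 7 targets had r between -0.25 (Aen) and 0.60 (Phlda3, exact permutation p = 0.0935, n = 9) and limma adjusted p between 0.523 and 0.892. Mdm2, the direct inhibitor of p53, had r = -0.15 (exact permutation p = 0.695, n = 9). The sign of r turned on 1 mouse for Mdm2 (0.17 without labelled knockout replicate 4), Trp53inp1 (-0.09 without control replicate 3) and Zmat3 (-0.71 without labelled knockout replicate 2). With 1 mouse left out, r reached an exact permutation p under 0.05 for Ccng1 (0.76 without labelled knockout replicate 1), Phlda3 (0.71 without labelled knockout replicate 2) and Trp53inp1 (0.74 without labelled knockout replicate 4). Relations of that size thus depended on single mice.

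The spread between mice differed widely among the members and was set beside the sequence that a gene's listed transcripts share with its unlisted ones. Listed Mdm2 and Trp53 have 0% windows of their own, Trp53inp1 has 0.745% and Aen 4.30%. Their mean within-group coefficients of variation (CV) were 69.0%, 47.8%, 51.5% and 82.8%. Cdkn1a (22.8% own windows), Plk2 (51.9%), Ccng1 (78.5%), Zmat3 (96.6%) and Sesn2 (100%) had mean CVs of 18.02%, 14.0%, 15.4%, 15.4% and 22.8%. Phlda3, with 70.5% own windows and at most 3.26 TPM in any mouse, had 53.2%. The value of Trp53 includes 134% in the DSS mice labelled knockout, the group that chose the set. In its other 3 groups Trp53 had CVs of 17.2%, 21.7% and 18.3%, like those of Cdkn1a and Ccng1. A small share of own sequence thus went with a wide spread for Mdm2, Trp53inp1 and Aen but not for Trp53 outside that group. Aen was also low, at 0 to 5.86 TPM, as was Zmat3, at most 3.63 TPM with a mean CV of 15.4%. The CVs were not split by level. Over all 11230 genes, the 648 with no window of their own (5.77%) had a median CV of 45.1%, and the 5021 with over 50% had 20.8%. Of the 40 genes that differed by at least 2 on the log2 scale between genotypes after DSS, 7 (17.5%) had no window of their own, as did 12 of 80 (15%) in water. Trp53, whose values chose the set, is among the 40 and among the 7. Genes with under 10% own windows made up 32.5% of the 40 and 33.8% of the 80, against 31.02% of all genes. The part of shared sequence in these differences was not tested.

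**Figure D4:**
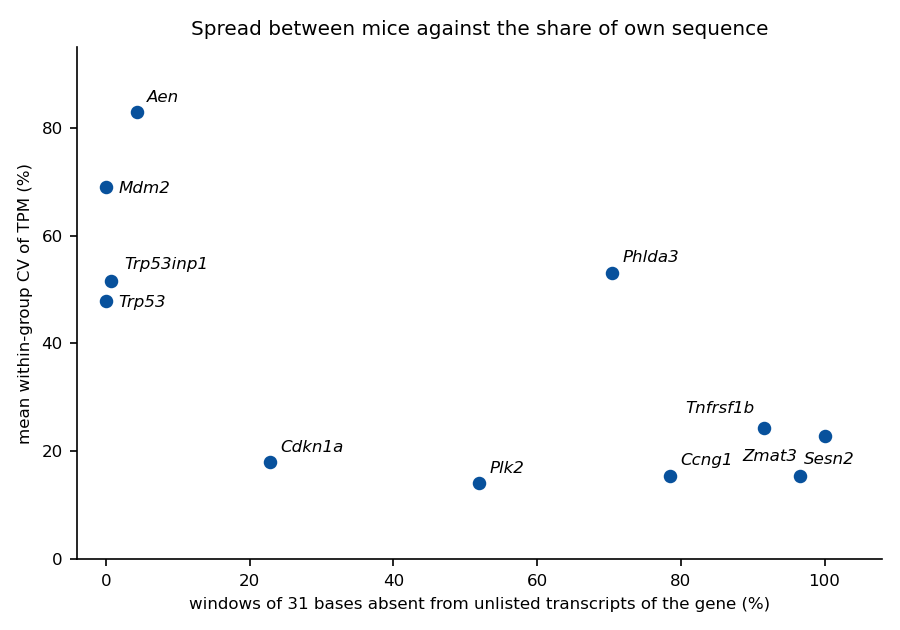
Mean within-group CV of TPM (%) of each member and of Tnfrsf1b against the share of 31-base windows of its listed transcripts that are absent from the gene's unlisted transcripts (%). Aen, Mdm2 and Trp53inp1, with shares of at most 4.30%, have CVs of 51.5% to 82.8%, and the 47.8% of Trp53 includes 134% in the DSS mice labelled knockout.

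Zmat3 shows how a sum can be steadier than its transcripts. Its 2 listed transcripts changed places from mouse to mouse, so that the first made up between 2.95e-07% and 100% of the gene in water controls. The sum stayed between 1.95 and 2.39 TPM in those mice.

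Among other genes of the p53 pathway, 90 genes in 6 lists were taken by role, and 77 of them passed the filter on low values in each genotype contrast. By genotype, 0 of the 77 were called by limma in water, where 4 had an unadjusted p under 0.05 (5.19%, against 5.28% of all genes). All 4 were higher in labelled knockout mice, where 2.7% of all genes were. Named after their values were seen, they were Psrc1, Slc19a2, Ccnb1 and Foxm1. On the Trp53 level in water 0 of 77 were called and 7 had an unadjusted p under 0.05, 4 of them with a positive slope, against 11.5% of all genes (5.57% with a positive slope).

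Set against water, the lists of direct targets lay near or below the median gene in controls after DSS and the proliferation list above it. On the scale rescaled over 16 mice, where the median gene is at 0.01, list medians of the DSS minus water difference were -0.20 for cell cycle and repair targets (4 of 12 above 0), -0.20 for apoptosis targets (5 of 11), -0.26 for metabolism and autophagy targets (5 of 13) and -0.47 for secreted and surface targets (2 of 9). p53 regulators had a median of 0.16 (11 of 15). The genes that p21 lowers through the DREAM repressor complex, most of which act late in the cell cycle, had 0.48 (14 of 18). In labelled knockout mice the medians in the same order were -0.22, 0.08, -0.57, 0.02, 0.33 and 0.49, so that apoptosis targets and secreted targets were above 0 there. No list was tested.

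Within these lists the targets did not share 1 direction. The TPM that follow are deposited values, in which the median gene was 0.32 higher on the log2 scale after DSS in controls. Sfn, the 14-3-3 sigma gene that holds cells before mitosis, stood at 411 ± 108.5 TPM (SD, n = 4) in water controls and 246 ± 104 TPM (SD, n = 3) in DSS controls. Gadd45a, a DNA damage response gene, stood at 87.4 ± 20.5 TPM (SD, n = 4) and 56.5 ± 8.42 TPM (SD, n = 3). These 2 cell cycle targets had lower means after DSS, as Cdkn1a did, and were among the lowest of their list. In deposited TPM 7 of its 12 genes were above 0, with Polk (0.71), Rrm2b (0.44) and Pcna (0.43) highest. The apoptosome gene Apaf1 stood at 5.24 ± 0.894 TPM (SD, n = 4) and 11.3 ± 1.56 TPM (SD, n = 3), and the death receptor gene Tnfrsf10b at 10.1 ± 3.89 TPM (SD, n = 4) and 23.2 ± 1.91 TPM (SD, n = 3). Both had higher means after DSS. Bax, a pore-forming apoptosis gene, stayed at 40.3 ± 3.06 TPM (SD, n = 4) and 39.0 ± 12.2 TPM (SD, n = 3). Ddit4, a further mTORC1 inhibitor, went from 30.04 ± 1.11 TPM (SD, n = 4) to 64.7 ± 3.87 TPM (SD, n = 3).

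Of the proliferation genes, Mki67 stood at 20.5 ± 5.02 TPM (SD, n = 4) in water controls and 53.7 ± 13.6 TPM (SD, n = 3) in DSS controls, and Ccna2, the cyclin A2 gene, at 14.7 ± 3.40 TPM (SD, n = 4) and 39.0 ± 13.5 TPM (SD, n = 3). Every DSS mouse of either genotype lay above every water mouse for both genes in deposited TPM. Of the 18 genes of this list, 7 did so in deposited TPM, where 18.9% of all genes did. After rescaling over 16 mice 2 of the 18 did so, where 4.39% of all genes did. Plk1 stood at 23.5 ± 2.15 TPM (SD, n = 4) and 30.3 ± 14.5 TPM (SD, n = 3), with overlapping mice, and its difference turned from 0.26 to -0.09 on rescaling.

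**Figure D5:**
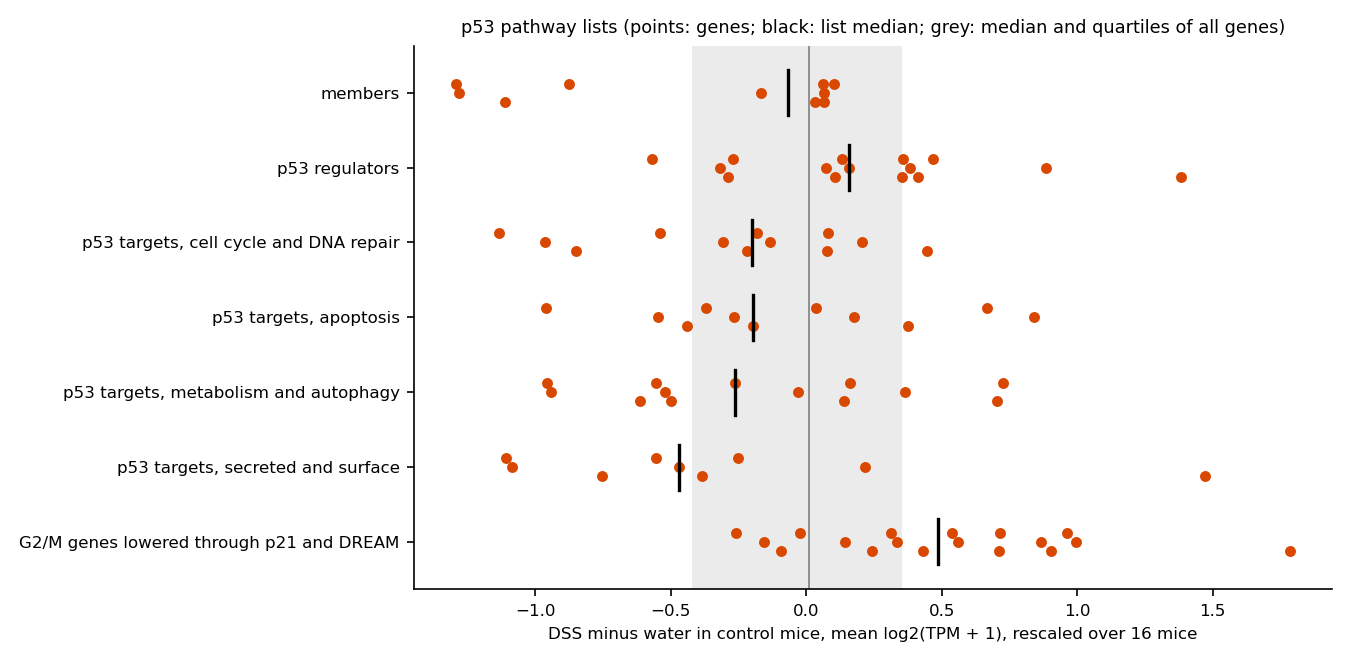
DSS minus water difference in control mice of mean log2(TPM + 1), rescaled over 16 mice, for each gene of the set and of 6 p53 pathway lists, with list medians in black and the median and quartiles of all genes in grey. The 4 target lists have medians between -0.47 and -0.20, and the list lowered through p21 and DREAM has 0.48.

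Genes were ranked by likeness to Trp53 in their variation within groups, and this ranking rests largely on the mice that chose the set. The SD of Trp53 in log2(TPM + 1) was 1.13 in the DSS mice labelled knockout and 0.24 to 0.31 in the other groups. Over 16 mice, likeness was the Pearson r of deviations from group means among 6219 genes with at least 5 TPM in both tables. The 5 most like Trp53 were Rnf186 (r = 0.84), Kti12 (0.83), Nudc (0.76), Mlec (0.72) and Ergic1 (0.71). Pearson r of log2(TPM + 1) itself, without removing group means, was 0.80, 0.83, 0.74, 0.85 and 0.35 over the 9 water mice. Over the 7 DSS mice no such r is given, since it would hold the gap in Trp53 between genotypes. Among the targets with at least 5 TPM in both tables, by r of deviations from group means, Mdm2 ranked 1270 (r = 0.31) and Cdkn1a 3972 (-0.06). Ccng1 ranked 4624 (-0.16), Trp53inp1 4907 (-0.20) and Plk2 5918 (-0.48). The mice share a table and its scaling, and the values are a description. Nothing is read from the ranks of the targets.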

How the data were processed

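RNA of EpCAM+ cells sorted from distal colon was measured in 16 mice. Per the labels, libraries were stranded and polyA-selected, with 75-base single reads. The submitters' processing notes name kallisto, sleuth and mm10. The authors deposited TPM per transcript in 2 tables, 1 per treatment and normalised separately, listing principal isoforms. The columns of the authors' own comparisons (p-values, q-values and a ratio by genotype) were not used. Repeated lines (385 per table) were dropped, leaving 28988 transcripts, all found in GENCODE M21 by identifier with version ignored, and TPM were summed per gene.

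Genotype within a table, and the slope of each gene on Trp53, were fitted with limma 3.58.1 (R 4.3.3, lmFit and eBayes with trend) on log2(TPM + 1) for genes whose mean over the mice compared reached 1 TPM, with two-sided p-values adjusted by Benjamini-Hochberg over all genes and called under 0.05, a scale that understates changes of low genes. The script was tested on simulated data. Single values and correlations used exact permutations (126 splits, 362880 pairings). Groups, cage and sex came from the labels. Members and lists were chosen with earlier results of these data known. Besides the members and Tnfrsf1b, the rule named the up to 3 genes of each pathway list with the largest and the up to 3 with the smallest DSS minus water difference in controls, from which the text gives examples, any gene of these lists called by limma (0 were), and the 5 most like Trp53. Replicate numbers are shared by the groups but mark no shared litter or cage in the labels. Deviations of same-numbered mice correlated between -0.20 and 0.09, so the numbers were not taken as pairs. Alternatives were other pseudocounts, filters and scalings, cage, genotype and replicate terms, and leaving out each mouse.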

Additional observations from a re-analysis of the deposited data

Results flagged for a closer look

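Among 30 groups of 4 or 5 mice examined for the 10 genes, 2 had a mouse far from the others, where chance gives about 1 in 20. Cdkn1a in the DSS mice labelled knockout had 1 mouse at 87.4 TPM and the others at 68.6, 69.3 and 68.6 TPM, a gap of 0.959 of the group's range. Zmat3 in the water mice labelled knockout had 1 mouse at 3.63 TPM and the others between 1.87 and 2.19 TPM, a gap of 0.817 of the range. That mouse, replicate 2, also had the highest Trp53 and the lowest Cdkn1a and Plk2 of the water mice. In deposited TPM, every DSS control had more listed Trp53 than the mean water control. Every DSS mouse labelled knockout had less than the mean water mouse labelled knockout, and the mean differences lie 23.4 TPM apart. This difference was not tested, and it rests on the values that chose the genes. After rescaling over 16 mice, the log2 DSS minus water difference of Trp53 in controls was 0.06, near the median gene at 0.01. In labelled knockout mice it was -3.56.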

How the results depend on the processing

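By genotype after DSS, limma called 1 gene (no member), and 0 with a pseudocount of 0.1, without the filter on low values or with the replicate block, 1 with all 4 groups in one fit, 2 per transcript (a setting chosen after seeing the data, as were rescaling over 16 mice for levels and leaving out labelled knockout mice from DSS minus water differences) and 0 to 3 with 1 mouse left out. The gene called with all 4 groups in one fit was Trp53, whose values chose the set, so that call is not a test of it. In water limma called 1 gene, and 0 with a pseudocount of 0.1, with a mean of at least 5 TPM or with the replicate block, 4 without the filter, 3 with all 4 groups in one fit, 2 per transcript and 1 to 2 with 1 mouse left out. On the Trp53 level in water it called 0, 1 with the replicate block and 0 to 2 with 1 mouse left out. Exact tests by genotype in water called 0 members, and 0 to 1 with 1 mouse left out. The count of members without overlap between DSS and water was 1, and 1 to 2 with 1 mouse left out. Of all genes, 18.9% were higher and 4.16% lower in this way. In control mice only the count was 2, where 30.9% of all genes were higher and 8.25% lower. In labelled knockout mice only it was 4, where 31.5% were higher and 10.1% lower, and these 4 include Trp53, whose values chose the set. The sign of small values turned. By genotype in water, Phlda3 was at 0.056 with the replicate block and spanned -0.23 to 0.060 with 1 mouse left out, Sesn2 -0.027 to 0.26 and Zmat3 -0.092 to 0.081. Slopes on Trp53 in water were 0.051 with the replicate block and 0.091 with cage for Sesn2, and with 1 mouse left out spanned -1.06 to 0.29 for Mdm2, -0.28 to 2.07 for Trp53inp1 and -0.25 to 0.40 for Zmat3. Their correlations with Trp53 spanned -0.50 to 0.17, -0.094 to 0.74 and -0.71 to 0.44. The correlation of Cdkn1a spanned -0.95 to -0.89 and its slope kept a limma adjusted p between 0.230 and 0.7004. The replicate block, in which the numbers are not pairs, changed no member's call. Without read counts, depth limits could not be given. The causes were not tested.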
